A study of Homo sapiens with 12 samples.

Results

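The hypoxia pathway genes described here are HIF1A, EPAS1, ARNT, VHL, EGLN1, EGLN2, EGLN3, HIF1AN, VEGFA and SLC2A1, 10 of the 20056 protein-coding genes of the RefSeq table. Each gene was given the TSS window (400 bp centred on an annotated transcription start site) on its own strand whose centre lay nearest its RefSeq 5′ end, within 1 kb, and every peak from 5 kb upstream to 5 kb downstream of the gene. This gave 6 windows of the 58381 measured and 35 peaks of the 32645 listed. The cells were HEK293, an established human embryonic kidney line, grown in high-glucose medium without any treatment. G-quadruplexes were precipitated from their fixed and sheared chromatin with the antibody BG4, and the recovered DNA was sequenced. The 9 libraries analysed are 3 technical ChIP libraries from each of 3 biological replicates, called BioRep3, BioRep2 and BioRep1. All share 1 condition, so the comparisons are between biological replicates, and between these genes and the other protein-coding genes. The labels do not say whether the biological replicates were separate cultures. The inputs, made without the antibody step, were not used here, and the identity of the cells was not checked because markers of expression cannot be read from precipitated DNA.

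In cells with oxygen, the prolyl hydroxylases EGLN1, EGLN2 and EGLN3 modify the alpha subunits of the hypoxia-inducible factor (HIF), and the VHL ubiquitin ligase then marks them for destruction. When oxygen is short, the alpha subunits HIF1A and EPAS1 (HIF-2α) persist, pair with ARNT and switch on targets such as VEGFA, the vascular endothelial growth factor, and SLC2A1, the glucose transporter GLUT1. HIF1AN, also called FIH, hydroxylates an asparagine in the alpha subunits and so blocks their contact with coactivators. A G-quadruplex is a fold of DNA rich in guanine, in which flat rings of paired guanines stack on each other, and the promoters of HIF1A and VEGFA are long-standing examples in studies of purified DNA.

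The promoter sequences of 6 of the genes are shown because they differ in whether they hold a guanine pattern that can form a G-quadruplex and in whether BG4 peaks covered it. Sequences are from RefSeq (GRCh38.p14), which gave a promoter for 8 of the 10 genes, and VHL and VEGFA are named only. Each line gives the 250 bases upstream of the 5′ end, 5′ to 3′ on the strand of the gene. Capitals mark a match to GGG repeated 4 times with 1 to 7 bases between the repeats, searched on both strands. Every match in these lines had its G runs on the strand opposite the gene, so the capitals read as runs of C. The lines cover chr14:61695263-61695512 (+ strand) for HIF1A, chr2:46297157-46297406 (+) for EPAS1, chr1:150876600-150876849 (−) for ARNT, chr1:231422288-231422537 (−) for EGLN1, chr10:100535693-100535942 (+) for HIF1AN and chr1:42958869-42959118 (−) for SLC2A1.
HIF1A: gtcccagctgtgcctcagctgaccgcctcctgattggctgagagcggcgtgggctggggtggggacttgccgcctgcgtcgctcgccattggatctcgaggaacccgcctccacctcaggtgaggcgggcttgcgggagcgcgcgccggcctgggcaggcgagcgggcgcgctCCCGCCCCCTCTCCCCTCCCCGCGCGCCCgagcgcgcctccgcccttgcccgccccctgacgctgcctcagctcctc
EPAS1: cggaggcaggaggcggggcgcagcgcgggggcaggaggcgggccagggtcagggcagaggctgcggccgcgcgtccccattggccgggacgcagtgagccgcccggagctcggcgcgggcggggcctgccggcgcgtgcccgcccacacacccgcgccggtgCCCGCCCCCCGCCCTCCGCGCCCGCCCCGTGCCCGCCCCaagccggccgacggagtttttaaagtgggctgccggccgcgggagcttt
EGLN1: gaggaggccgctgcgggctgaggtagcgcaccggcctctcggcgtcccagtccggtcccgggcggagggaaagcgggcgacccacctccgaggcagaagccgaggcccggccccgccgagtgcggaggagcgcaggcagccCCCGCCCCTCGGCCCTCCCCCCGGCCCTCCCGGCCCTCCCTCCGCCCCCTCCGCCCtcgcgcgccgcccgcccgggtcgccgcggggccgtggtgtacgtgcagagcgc
SLC2A1: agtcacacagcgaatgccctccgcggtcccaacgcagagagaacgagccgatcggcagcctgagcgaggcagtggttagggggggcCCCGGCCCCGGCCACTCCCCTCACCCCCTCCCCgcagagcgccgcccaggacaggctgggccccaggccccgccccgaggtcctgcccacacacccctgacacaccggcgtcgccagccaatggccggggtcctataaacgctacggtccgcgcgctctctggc
ARNT: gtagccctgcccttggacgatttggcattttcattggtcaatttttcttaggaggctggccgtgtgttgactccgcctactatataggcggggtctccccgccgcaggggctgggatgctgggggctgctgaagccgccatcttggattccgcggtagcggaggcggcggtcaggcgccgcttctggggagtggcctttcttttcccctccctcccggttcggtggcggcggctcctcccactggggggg
HIF1AN: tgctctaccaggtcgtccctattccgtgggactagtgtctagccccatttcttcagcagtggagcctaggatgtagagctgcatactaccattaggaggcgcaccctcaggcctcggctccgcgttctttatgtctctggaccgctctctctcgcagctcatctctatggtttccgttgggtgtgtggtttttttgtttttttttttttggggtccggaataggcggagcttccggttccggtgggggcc

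All 10 genes had a peak at the promoter interval, 250 bases before to 50 after the RefSeq 5′ end, in at least 1 of the 3 peak lists (95% Wilson interval of the share 72.2 to 100%), against 42.1% of 15845 protein-coding genes. HIF1A, ARNT, VHL, EGLN1, EGLN2 and SLC2A1 had one in all 3 lists, which is 6 of 10 or 60% (31.3 to 83.2%), against 24.8% of protein-coding genes. HIF1AN and VEGFA had one in the lists of BioRep3 and BioRep2, so that 8 of 10 had one in at least 2 lists, against 35.4% of protein-coding genes. EPAS1 had its only peak in BioRep2 and EGLN3 in BioRep3. No test was made on these counts, since the genes were picked as a pathway with earlier results of these data known. The counts on promoter intervals were chosen after seeing the data, and the Wilson intervals treat the genes as random draws. Other protein-coding genes without a strand in the reference were left out, while VHL and VEGFA took theirs from their windows.

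The number of genes with a promoter peak was 9 of 10 in BioRep3, 9 in BioRep2 and 6 in BioRep1, against 39.2, 36.7 and 26.3% of protein-coding genes in the same lists. The peaks at these promoters had a median length of 429 bp in BioRep3, 245 bp in BioRep2 and 122 bp in BioRep1. The whole lists moved the same way, with 13049 peaks of a median 169 bp in BioRep3, 11665 of 149 bp in BioRep2 and 7931 of 124 bp in BioRep1. The part of list size in the lower count for BioRep1 was not tested. Of the 35 peaks, 27 touched a promoter interval and 8 did not.

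**Figure D1:**
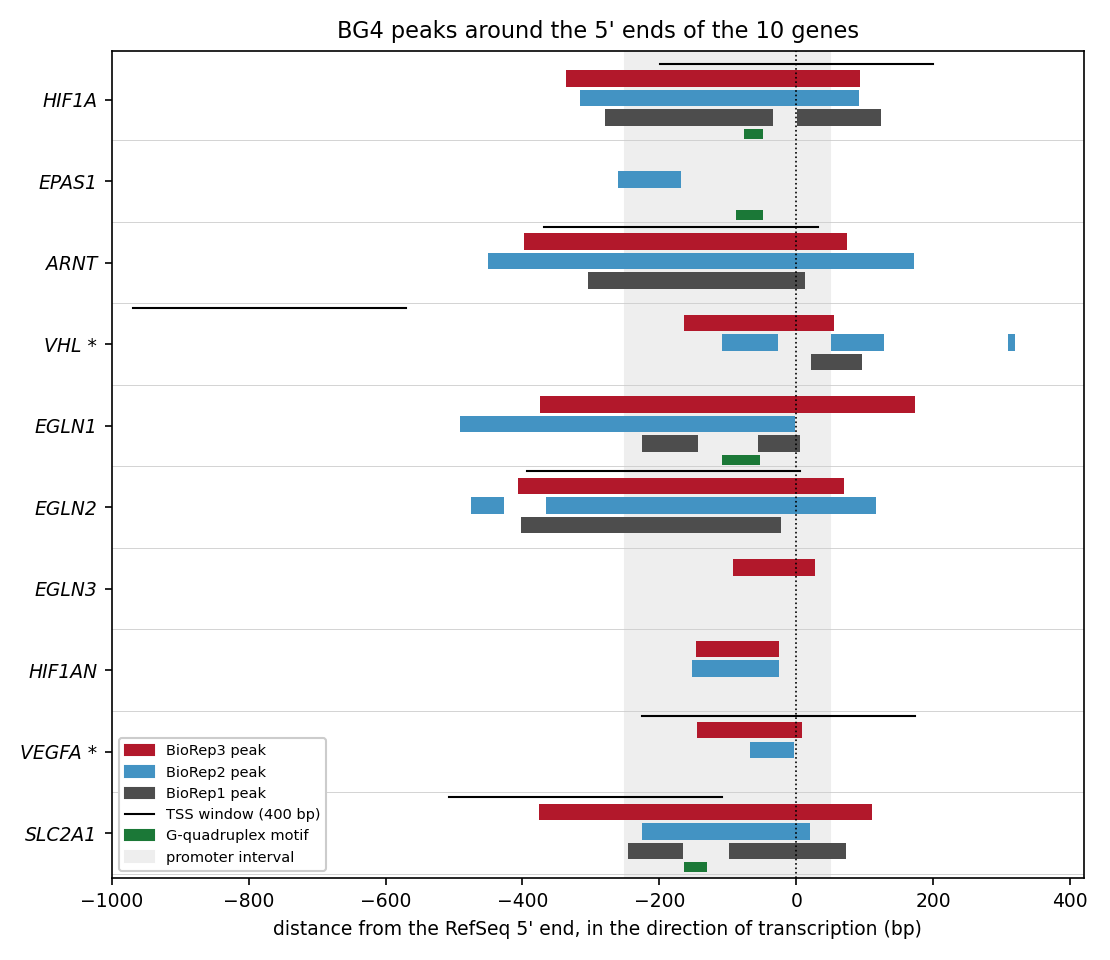
Peaks of BioRep3, BioRep2 and BioRep1 around the 5′ ends of the 10 genes, by distance from the RefSeq 5′ end in bp in the direction of transcription, with the TSS window (black line) and the G-quadruplex pattern (green). HIF1A, ARNT, EGLN1, EGLN2, SLC2A1 and VHL have peaks at the promoter interval (grey) in all 3 lists, and the window of VHL lies upstream of its peaks; asterisks mark VHL and VEGFA, whose sequence was not searched.

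HIF1A encodes the alpha subunit that oxygen-dependent degradation holds down (chr14:61695513-61748258, + strand, hg38). A single peak ran across its 5′ end in BioRep3, from 336 bases upstream to 92 downstream. In BioRep2 the peak ran from 316 bases upstream to 91 downstream, and in BioRep1 there were 2 peaks, from 280 to 35 bases upstream and from 1 to 122 bases downstream. The 3 lists shared 337 bases here. The G-quadruplex pattern, 77 to 49 bases upstream and 29 bases long, lay wholly inside a peak in each list.

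The TSS window of HIF1A (ENSG00000100644.16, chr14:61695314-61695713) was centred on the RefSeq 5′ end. It held 88.8, 101.9 and 99.4 CPM, or counts per 1000000 of the library's reads in all windows, in the 3 libraries of BioRep3. The libraries of BioRep2 held 74.6, 87.5 and 84.6 CPM, and those of BioRep1 held 81.4, 80.6 and 77.9 CPM. The 3 libraries of BioRep3 were the highest of the 9, and the libraries of BioRep2 and BioRep1 overlapped. The mean was 86.3 ± 9.09 CPM (SD over 3 biological replicates, each the mean of 3 technical libraries). That is at the 95.5 percentile of 13480 protein-coding windows and 7.52 times the median of 11.5 ± 0.52 CPM in the 7638 of them without a peak.

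Reads of HIF1A are partly shared with an antisense neighbour. The 5′ end of HIF1A-AS1, a lncRNA gene on the other strand, lay 310 bp away, and the window ENSG00000258777.1 on that strand overlapped the HIF1A window by 90 bp. That window held 34.3 ± 3.48 CPM (SD, n = 3 biological replicates) and a peak in 1 list. Coverage of double-stranded DNA does not tell the promoters of the pair apart where they overlap. Past the 3′ end of HIF1A, a peak of 177 bp in BioRep2 (chr14:61751053-61751229) overlapped HIF1A-AS3, another lncRNA gene, and a peak of 4 bp in BioRep3 (chr14:61751230-61751233) began at the next base. They began 2972 bp (BioRep3) and 2795 bp (BioRep2) beyond the gene's end, and BioRep1 had none there.

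ARNT, the beta subunit that both alpha subunits need (chr1:150809713-150876599, − strand), had the highest level of the 6 windows. Its window (ENSG00000143437.20, chr1:150876569-150876968) was centred 169 bp upstream of the RefSeq 5′ end. The libraries held 127.8, 133.5 and 124.7 CPM in BioRep3, 116.2, 120.6 and 125.3 CPM in BioRep2, and 79.8, 126.3 and 96.1 CPM in BioRep1. BioRep1 spread most, with its highest library inside the range of BioRep3 and its other libraries below every library of BioRep3 and BioRep2. The mean was 116.7 ± 14.4 CPM (SD, n = 3 biological replicates), at the 99.0 percentile of protein-coding windows and 10.2 times the median of those without a peak.

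One unbroken peak lay over the ARNT 5′ end in every list, from 398 bases upstream to 73 downstream in BioRep3, 450 upstream to 171 downstream in BioRep2, and 305 upstream to 12 downstream in BioRep1. The whole 318 bp of the BioRep1 peak fell inside the peaks of both other lists. The ARNT promoter held no match to the G-quadruplex pattern, nor to the same pattern with spacers of 1 to 12 bases. It had 13 runs of 3 or more G or C and 66.7% GC, close to the medians of 14 runs and 62.7% over 13819 protein-coding promoters. With runs of GG in place of GGG there were 4 matches, all on the gene's strand, a pattern that 89.2% of all promoters held.

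EPAS1 encodes the other alpha subunit, HIF-2α (chr2:46297407-46386697, + strand). No window on its strand lay within 1 kb of the RefSeq 5′ end, and the nearest was centred 3740 bp away and held 9.60 ± 0.586 CPM (SD, n = 3 biological replicates) without a peak. Its only peak, of 92 bp in BioRep2, ran from 260 to 169 bases upstream. The G-quadruplex pattern of EPAS1, 88 to 50 bases upstream and 39 bases long, shared no base with a peak in any list. With spacers of 1 to 12 bases a further match on the gene's strand, 236 to 197 bases upstream, lay wholly inside the BioRep2 peak. At 80% GC and 24 runs of 3 or more G or C, this promoter and that of EGLN1 were the most GC-rich of the 8 with a sequence.

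Among the genes that mark the alpha subunits for degradation, VHL, EGLN1 and EGLN2 had promoter peaks in all 3 lists and EGLN3 in 1 list. HIF1AN, which acts on coactivator binding, had them in 2 lists. VHL, the substrate-binding subunit of the ubiquitin ligase (chr3:10141778-10153667, + strand), had 1 peak in BioRep3, from 164 bases upstream to 54 downstream. In BioRep2 it had 3 short peaks, from 109 to 28 bases upstream, from 51 to 127 downstream and from 309 to 318 downstream. In BioRep1 it had 1 peak from 21 to 95 bases downstream. Only 4 bases, 51 to 54 downstream, lay in a peak of all 3 lists, against 337 shared bases at HIF1A, 318 at ARNT and 342 at EGLN2.

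The TSS window of VHL (ENSG00000134086.7, chr3:10140809-10141208) was centred 770 bp upstream of the RefSeq 5′ end, the farthest that entered within 1 kb, and contained none of these peaks. It held 14.0, 11.5 and 5.05 CPM in BioRep3, 12.1, 8.27 and 18.8 CPM in BioRep2, and 9.39, 13.4 and 9.06 CPM in BioRep1. These values rest on 3 to 12 reads per library, and the ranges of the 3 replicates overlap. The summed reads were 20 in BioRep3 (exact Poisson 95% interval 12.2 to 30.9, counting error only), 26 in BioRep2 (17.0 to 38.1) and 16 in BioRep1 (9.15 to 25.98). The mean of 11.3 ± 1.55 CPM (SD, n = 3) was 0.985 times the median of the peak-free protein-coding windows, and it describes DNA upstream of the peaks and not the promoter that carried them.

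EGLN1, the main oxygen sensor among the prolyl hydroxylases (chr1:231363756-231422287, − strand), had a peak of 547 bp in BioRep3, from 374 bases upstream to 172 downstream, and of 489 bp in BioRep2, from 491 to 3 bases upstream. BioRep1 had 2 short peaks, from 226 to 144 bases upstream and from 56 upstream to 5 downstream. They flanked the G-quadruplex pattern, which ran 56 bases from 109 to 54 upstream. All 56 bases lay inside a peak in BioRep3 and in BioRep2, and 3 of them did in BioRep1. The nearest window on the strand of EGLN1 was centred 2757 bp away, outside the limit of 1 kb, and held 18.0 ± 3.40 CPM without a peak.

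EGLN2, the prolyl hydroxylase known for its nuclear location (chr19:40799191-40808434, + strand), had the most shared peak bases of the 10 genes, 342 at its promoter. The main peak ran from 407 bases upstream to 69 downstream in BioRep3, from 365 upstream to 116 downstream in BioRep2, and from 402 to 24 upstream in BioRep1. BioRep2 had a further peak of 48 bp, from 475 to 428 bases upstream, inside the annotated readthrough gene RAB4B-EGLN2. No G-quadruplex pattern with spacers of up to 7 bases was found, while spacers of up to 12 bases gave 2 matches, 245 to 216 and 129 to 97 bases upstream. Both lay wholly inside a peak in every list.

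The EGLN2 window (ENSG00000269858.5, chr19:40798797-40799196, centred 195 bp upstream of the 5′ end) held 101.3, 103.4 and 80.9 CPM in BioRep3, 86.7, 98.1 and 90.9 CPM in BioRep2, and 61.1, 91.4 and 74.3 CPM in BioRep1. The ranges of BioRep3 and BioRep2 overlap, and 2 of the BioRep1 libraries lie below all others. Its mean was 87.6 ± 10.5 CPM (SD, n = 3 biological replicates), at the 95.7 percentile of protein-coding windows and 7.63 times the median of those without a peak.

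EGLN3, the prolyl hydroxylase that is itself a HIF target (chr14:33924227-33951074, − strand), had 1 peak of 120 bp, in BioRep3, from 92 bases upstream to 27 downstream. No window on its strand lay nearer than 466528 bp, so no level is given for it. HIF1AN, the asparagine hydroxylase (chr10:100535943-100559998, + strand), had a peak of 120 bp in BioRep3, from 146 to 27 bases upstream, and of 128 bp in BioRep2, from 153 to 26 bases upstream. The BioRep3 peak fell wholly inside the BioRep2 peak, and BioRep1 had none. HIF1AN had the lowest GC content of the 8 promoters, 58%, and the fewest runs of 3 or more G or C, 8, and held no match to the G-quadruplex pattern at either spacer length. The nearest window on its strand was centred 6871 bp away and held 17.5 ± 3.61 CPM without a peak.

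The windows of the 2 target genes lay below those of HIF1A, ARNT and EGLN2 in read level. SLC2A1 (chr1:42925353-42958868, − strand) had a window, ENSG00000117394.21 (chr1:42958977-42959376), centred 308 bp upstream of its 5′ end. This window did not reach the 5′ end and left out the BioRep1 peak that crossed it. It held 54.6, 66.1 and 50.5 CPM in BioRep3, 36.4, 49.6 and 73.6 CPM in BioRep2, and 51.7, 45.7 and 52.6 CPM in BioRep1. BioRep2 alone spanned the whole range of the 9 libraries, on 21 to 47 reads each, so the replicates overlap. The mean was 53.4 ± 3.54 CPM (SD, n = 3 biological replicates), at the 79.3 percentile and 4.66 times the median of the peak-free protein-coding windows.

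The peak at the SLC2A1 5′ end ran from 376 bases upstream to 109 downstream in BioRep3 and from 225 upstream to 19 downstream in BioRep2. BioRep1 had 2 peaks, from 246 to 166 bases upstream and from 98 upstream to 72 downstream, on either side of the G-quadruplex pattern. That pattern, 33 bases from 164 to 132 upstream, lay wholly inside a peak in BioRep3 and BioRep2 and outside the peaks of BioRep1. The divergent lncRNA gene SLC2A1-DT begins 181 bp away, and the window on its strand, ENSG00000227533.5, shared 273 bp with that of SLC2A1. It held more, 72.9 ± 7.56 CPM (SD, n = 3 biological replicates), with a peak in all 3 lists, and the reads of the pair cannot be assigned to either gene.

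SLC2A1 alone of the 10 genes had a second place with peaks in every list. It lay downstream of the gene's 3′ end, in no RefSeq gene, at chr1:42924250-42924464 in BioRep3, chr1:42924305-42924457 in BioRep2 and chr1:42924293-42924374 in BioRep1. These peaks began 889 bp (BioRep3), 896 bp (BioRep2) and 979 bp (BioRep1) past the 3′ end, and 70 bases lay in all 3 of them.

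VEGFA (chr6:43770211-43786487, + strand) had peaks of 154 bp in BioRep3, from 145 bases upstream to 8 downstream, and of 64 bp in BioRep2, from 67 to 4 bases upstream, with none in BioRep1. Its window (ENSG00000112715.21, chr6:43769985-43770384, centred 27 bp upstream) held 39.0, 43.1 and 45.5 CPM in BioRep3, 48.6, 41.4 and 43.9 CPM in BioRep2, and 36.0, 45.7 and 43.5 CPM in BioRep1. The libraries of the 3 replicates overlap. The replicate means were 42.5 CPM in BioRep3, 44.6 CPM in BioRep2 and 41.7 CPM in BioRep1, although BioRep1 listed no peak here. The mean was 43.0 ± 1.48 CPM (SD, n = 3 biological replicates), at the 69.5 percentile and 3.74 times the median of the peak-free protein-coding windows. The summed reads were 82 in BioRep3, 91 in BioRep2 and 64 in BioRep1. A neighbouring window on the other strand, ENSG00000272114.1, shared no base with it and held 22.6 ± 1.98 CPM without a peak.

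**Figure D2:**
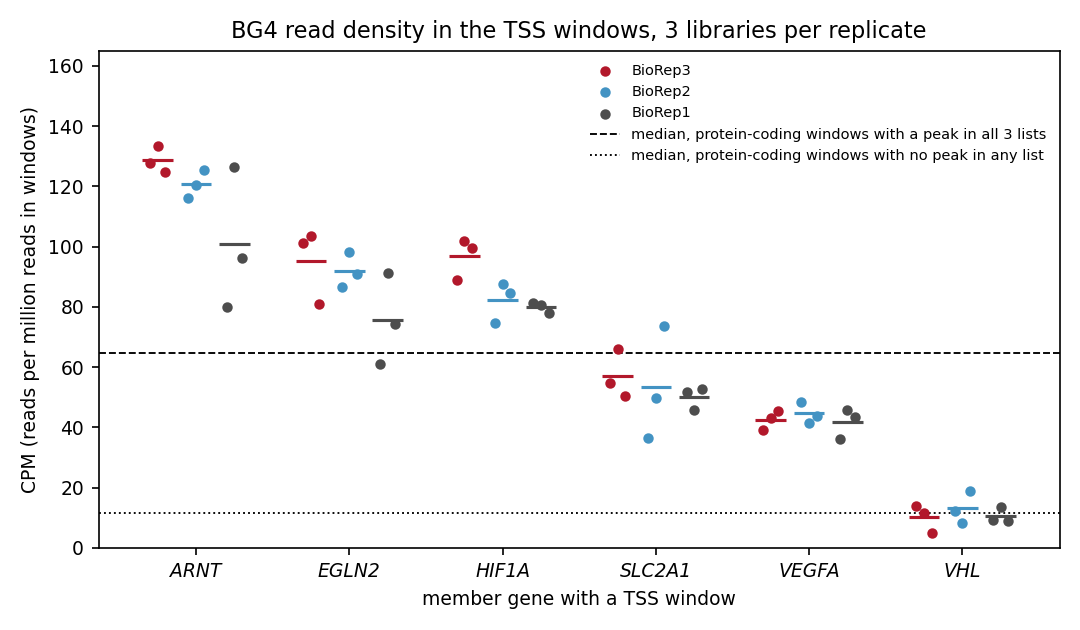
CPM in the TSS windows of the 6 genes that have one, with a point for each technical library and a bar for the mean of each biological replicate (BioRep3, BioRep2 and BioRep1 from left to right). The horizontal lines are the medians of protein-coding windows with a peak in all 3 lists (64.8 CPM) and in none (11.5 CPM), and ARNT, EGLN2 and HIF1A lie mostly above the upper line while VHL lies about the lower one.

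In the read level of their windows the genes ran ARNT, EGLN2, HIF1A, SLC2A1, VEGFA and VHL. The windows of SLC2A1 and VHL did not reach the RefSeq 5′ end. The lowest replicate of ARNT, at 100.7 CPM, was above the highest of EGLN2, at 95.2 CPM. EGLN2 (95.2, 91.9 and 75.6 CPM in BioRep3, BioRep2 and BioRep1) and HIF1A (96.7, 82.2 and 80.0 CPM) overlapped, with EGLN2 higher in 1 of 3 replicates. HIF1A was above SLC2A1 (57.1, 53.2 and 50.0 CPM), SLC2A1 above VEGFA (42.5, 44.6 and 41.7 CPM), and VEGFA above VHL (10.2, 13.1 and 10.6 CPM) in 3 of 3 replicates without overlap. The gap between SLC2A1 and VEGFA was narrow, with 50.0 CPM in the lowest replicate of SLC2A1 and 44.6 CPM in the highest of VEGFA, and their single libraries overlap.

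The read level around the genes differed between loci, also within chromosome 1, where ARNT and SLC2A1 both lie. The local background, the median of windows within 5 Mb that had no peak and no protein-coding gene, was 10.2 ± 0.660 CPM around ARNT and between 7.83 and 8.69 CPM around the other 5 genes. Divided by it, ARNT stood at 13.6, 11.6 and 9.37 in BioRep3, BioRep2 and BioRep1, HIF1A at 13.2, 10.6 and 9.52, and EGLN2 at 11.6, 10.9 and 8.07. On this scale the replicate ranges of those 3 genes overlapped. Within each replicate ARNT was still above EGLN2, in 3 of 3. ARNT was above HIF1A in BioRep3 and BioRep2 and below it in BioRep1. The mean ratio of HIF1A, 11.1, was above that of EGLN2, 10.2, the reverse of their order in CPM. The ratios were 6.31 ± 0.647 for SLC2A1, 5.16 ± 0.26 for VEGFA and 1.42 ± 0.263 for VHL (SD, n = 3 biological replicates).

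**Figure D3:**
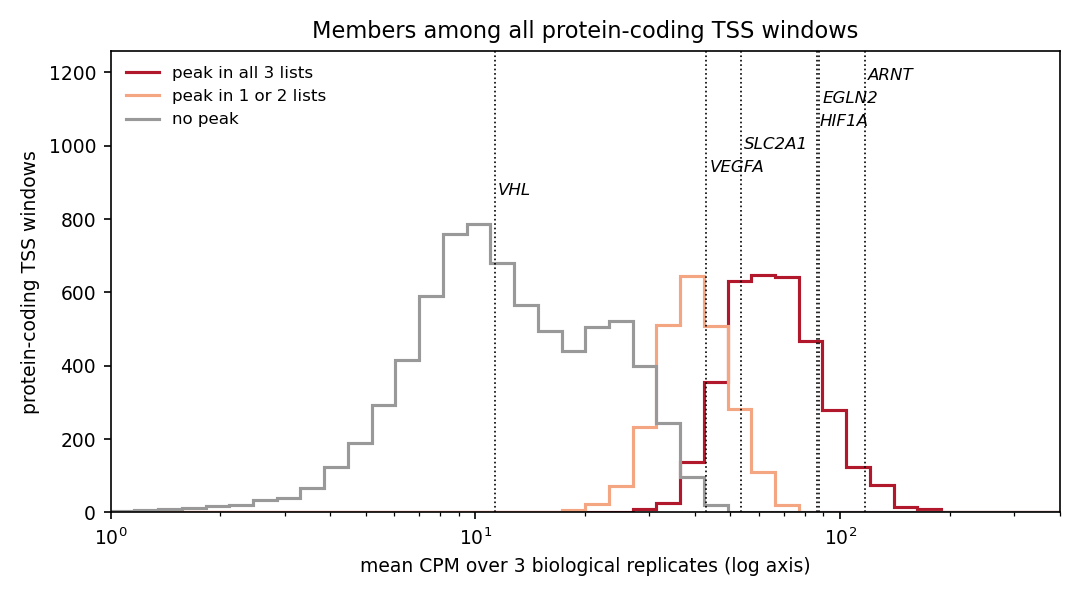
Number of protein-coding TSS windows by mean CPM (log axis), split by whether a peak lay in the window in all 3 lists, in 1 or 2 lists, or in none, with dotted lines at the 6 windows described. ARNT (116.7 CPM), EGLN2 (87.6 CPM) and HIF1A (86.3 CPM) lie to the right, and VHL (11.3 CPM) lies among the windows without a peak.

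Within the TSS windows, 4 of 6 had a peak in all 3 lists (HIF1A, ARNT, EGLN2 and SLC2A1), or 66.7% (95% Wilson interval 30 to 90.3%), against 25.5% of 13597 protein-coding genes with a window and 8.94% of all windows. VEGFA had one in 2 lists, which gave 5 of 6 in at least 2 lists, against 36.2% of protein-coding genes, and the same 5 of 6 in any list, against 43.4%. The median level of the 6 windows was 68.9 ± 6.74 CPM, against 25.3 ± 0.539 CPM over 13480 protein-coding windows and 64.8 ± 3.25 CPM over the 3426 of them with a peak in all 3 lists (SD, n = 3 biological replicates). With gene bodies and 5 kb flanks counted, 6 of 10 genes had a peak in all 3 lists, against 37% of protein-coding genes, 8 of 10 in at least 2 lists, against 49.8%, and 10 of 10 in any list, against 57.8%. The flanks and gene bodies added no gene to the 6 that had promoter peaks in all 3 lists.

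Among the 8 promoters with a sequence, HIF1A, EPAS1, EGLN1 and SLC2A1 held the G-quadruplex pattern with spacers of 1 to 7 bases, 4 of 8, against 29.6% of 13819 protein-coding promoters. HIF1A, EGLN1 and SLC2A1 had a promoter peak in all 3 lists and EPAS1 in 1. Of the other 4 promoters, ARNT and EGLN2 had one in all 3 lists, HIF1AN in 2 and EGLN3 in 1. Over all promoters, a peak in all 3 lists was found at 34.3% of those with the pattern, against 23.6% of those without. Spacers of 1 to 12 bases gave a match in 6 of 8, all but ARNT and HIF1AN, against 44.7% of all promoters.

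GC content was above the protein-coding median of 62.7% in 7 of the 8 promoters, at 73% in HIF1A, 80% in EPAS1 and EGLN1, 76.3% in EGLN2, 71% in SLC2A1, 66.7% in ARNT and 65% in EGLN3. GGGCGG, the core of the Sp1 binding motif, occurred on either strand in 6 of the 8, all but ARNT and HIF1AN, against 58.5% of all promoters. A peak in all 3 lists was found at 39.1% of all promoters with GGGCGG, against 9.46% of those without. GGGCGG can overlap the G-quadruplex pattern, as it does in HIF1A, EPAS1 and EGLN1. ACGTG, the core of the sequence that HIF binds, occurred in 2 of the 8, EGLN1 (13 to 9 bases upstream) and EGLN2 (48 to 44 bases upstream, and again on the opposite strand), against 24% of all promoters, and it lay inside a peak in every list. These letter matches describe the windows searched and are no measure of binding.

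RefSeq gives HIF1A and EGLN2 a further promoter each. That of HIF1A (chr14:61697462-61697761) had 31.7% GC, no G-quadruplex pattern and no peak in any list. That of EGLN2 (chr19:40799272-40799571) had 79.3% GC and 2 matches on the gene's strand, and 36 of its bases lay in a peak in BioRep2 and none in the other lists.

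No difference between biological replicates was called at these genes. Over the 17499 windows that passed the filter on low counts, edgeR's quasi-likelihood test with Benjamini-Hochberg adjustment called 0 windows in any contrast at an adjusted p under 0.05 (percent called 0). At an unadjusted p under 0.05 it had 1508 windows for BioRep3 over BioRep1, 979 for BioRep3 over BioRep2 and 1328 for BioRep2 over BioRep1, and DESeq2 also called 0, with 551, 248 and 442. HIF1A, ARNT, EGLN2, VEGFA and SLC2A1 passed the filter and VHL did not. These p-values measure only the spread between technical libraries.

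ARNT had a log2 fold change of 0.36 for BioRep3 over BioRep1 (SE 0.147, 95% interval 0.07 to 0.65, edgeR adjusted p = 0.441, unadjusted 0.0141). EGLN2 had 0.34 for the same contrast (SE 0.17, 95% interval 0.005 to 0.67, edgeR adjusted p = 0.569, unadjusted 0.0467). For BioRep2 over BioRep1 the log2 fold changes were 0.30 for ARNT and 0.32 for EGLN2 (edgeR adjusted p = 0.643 and 0.677). Both contrasts share the BioRep1 libraries, and the values of both genes depended on which BioRep1 library was left out. Technical library 1 of BioRep1 was the lowest of the 9 for ARNT and for EGLN2. Without it, the log2 fold change for BioRep3 over BioRep1 was 0.20 for ARNT (95% interval -0.13 to 0.53) and 0.19 for EGLN2 (-0.20 to 0.57), against 0.24 for HIF1A. For BioRep2 over BioRep1 it was then 0.13 for ARNT (-0.20 to 0.46) and 0.16 for EGLN2 (-0.22 to 0.54). Without technical library 2 of BioRep1, the log2 fold change for BioRep3 over BioRep1 was 0.52 for ARNT (95% interval 0.20 to 0.84) and 0.47 for EGLN2 (0.10 to 0.84). Without technical library 3 of BioRep1 it was 0.37 for ARNT (0.04 to 0.70) and 0.37 for EGLN2 (-0.02 to 0.75). With all 9 libraries, HIF1A was at 0.22, SLC2A1 at 0.13 and VEGFA at -0.002 for BioRep3 over BioRep1 (edgeR adjusted p = 0.773, 0.926 and 0.998). For BioRep3 over BioRep2 all 5 genes lay between -0.08 (VEGFA) and 0.19 (HIF1A), with edgeR adjusted p from 0.934 to 0.996.

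The intervals were wide at this depth. That for VEGFA in BioRep3 over BioRep2, ran from -0.51 to 0.34 on the log2 scale. Counts were simulated for BioRep3 against BioRep1 over 16384 windows, with some windows raised in BioRep3. The same edgeR test called 18.2% of windows raised 1.5-fold, 68.7% of those raised 2-fold and 97% of those raised 3-fold. It called 7 of 16185 unchanged windows. The simulation used 1 common dispersion of 0.0011, estimated between technical libraries. The rates are over all simulated windows and not for the windows of these genes.

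**Figure D4:**
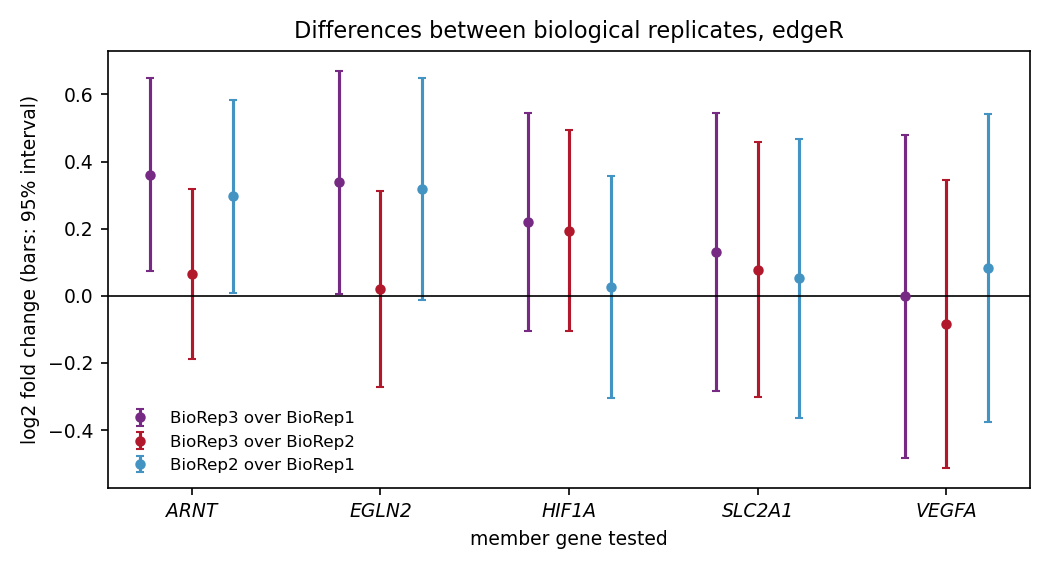
Log2 fold changes of the 5 tested windows between biological replicates from edgeR, with 95% intervals as bars. The intervals of ARNT and EGLN2 for BioRep3 over BioRep1 and of ARNT for BioRep2 over BioRep1 lie above 0 with all 9 libraries. They span 0 without technical library 1 of BioRep1 and lie above 0 without technical library 2 of BioRep1. None passed adjustment over 17499 windows, and VHL was below the filter on low counts.

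Other genes of the pathway were read from 5 lists of 71 genes, of which 61 had a strand in the reference and 51 a window. Of these, 16 of 51 had a window peak in all 3 lists (31.4%, 95% Wilson interval 20.3 to 45%), against 25.5% of protein-coding genes. A promoter peak in all 3 lists was found at 21 of 61 (34.4%, 23.7 to 47%), against 24.8% of protein-coding genes. With gene bodies and 5 kb flanks counted, 33 of 61 had a peak in all 3 lists (54.1%, 41.7 to 66%). The share was 37% over protein-coding genes and 60% over the 10 genes described. No test was made on these counts. The lists were chosen with earlier results of these data known, and the intervals treat their genes as random draws. The median level of the 51 windows was 32.3 CPM. Of the 40 windows of these other genes in the edgeR fit, 0 were called in any contrast.

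Among HIF subunits and coactivators, 1 of 5 windows had a peak in all 3 lists. CITED2, which competes with the alpha subunits for their coactivators, was highest at 60.1 ± 6.61 CPM, and HIF3A, a further alpha subunit, lowest at 6.61 ± 2.36 CPM (SD, n = 3 biological replicates, as for each level of these lists). Among genes of HIF stability and its ubiquitin ligase it was 4 of 11, with RBX1, the RING subunit of that ligase, at 94.3 ± 7.65 CPM and P4HTM, a membrane-bound prolyl hydroxylase, at 9.33 ± 2.01 CPM. Targets in glucose metabolism and transport had 5 of 14, with the glycolytic enzyme PGAM1 at 85.8 ± 12.8 CPM and PFKFB4, a regulator of glycolysis, at 11.95 ± 2.72 CPM.

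Targets in matrix, survival and pH had 6 of 12 windows with a peak in all 3 lists. DDIT4, an inhibitor of mTORC1 signalling, was highest at 112.3 ± 2.83 CPM, and CA9, a carbonic anhydrase, lowest at 10.7 ± 0.731 CPM. Targets in vessels, red cells and iron, the list nearest in role to VEGFA, had 0 of 9. Lists of 5 to 14 windows are too short to set apart from each other or from the 25.5% of protein-coding genes, and their differences were not tested. In the list of vessels, red cells and iron the transferrin receptor TFRC was highest at 41.7 ± 5.92 CPM, with a peak in 2 lists, and EPO, erythropoietin, lowest at 7.03 ± 0.273 CPM with none.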

How the data were processed

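BG4 ChIP of HEK293 cells was analysed from 9 libraries and 3 peak lists. The deposited values are raw read counts per TSS window of 400 bp, and the deposited peak lists give positions without scores, 1 list per biological replicate. Named in the submitters' processing notes are the build hg38 and the tools bedtools, BWA, cutadapt, MACS2 and Picard. The sources used here do not give versions, thresholds or the handling of duplicates. Windows held 372030 to 846114 reads per library, which is not the full depth, and 5.15 to 9.97% of windows were empty. Groups came from the sample titles.

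CPM is per reads in all windows. Technical libraries of 1 replicate differed by no more than sampling noise (chi-square per window 0.871 to 1.003 over 9 pairs), so they were averaged, and n is 3 biological replicates. Libraries of different biological replicates gave 0.938 to 1.218 over 27 pairs, with a median of 1.029 against 0.898 within replicates. The 2 ranges overlap. Genes, strands and promoters came from RefSeq tables of GRCh38.p14 by position. For VHL and VEGFA the strand was that of the window at the 5′ end, while other genes without a strand were left out. A peak counted with 1 bp of overlap. The counts were compared between replicates by edgeR's quasi-likelihood test (robust fit, TMM scaling, low counts removed by filterByExpr, threshold 0.05 after Benjamini-Hochberg adjustment), which was tested on simulated data. DESeq2, other filters, a block on the technical number and left-out libraries were alternatives. Python 3.11.15, pandas 2.3.3, scipy 1.17.1, R 4.3.3, edgeR 4.0.16 and DESeq2 1.42.0 were used.

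The members and lists were chosen with earlier results of these data known. All 10 members are named, with the highest and lowest window of each other list. No window within 1 kb means no level for EPAS1, EGLN1, EGLN3 and HIF1AN. Poisson intervals cover counting error only, Wilson intervals the number of genes counted, and edgeR's intervals the spread between technical libraries.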

Additional observations from a re-analysis of the deposited data

How the results depend on the processing

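Depth limited these results, with 3 to 12 reads per library for VHL. Without the filter on low counts (56196 windows), edgeR called 25 windows among the 3 replicates, 28 for BioRep3 over BioRep1 and 6 for BioRep2 over BioRep1, none of them the window of HIF1A, ARNT, VHL, EGLN2, VEGFA or SLC2A1. For these the lowest adjusted p from edgeR or DESeq2 was 0.235, over every alternative run for 5 of them and without the filter for VHL. The 95% interval of EGLN2 for BioRep3 over BioRep1 also reached below 0 with RLE size factors (from -0.003) and with the replicate block (from -0.024), as did that of ARNT for BioRep2 over BioRep1 with the block (from -0.024). Without the filter, the intervals for BioRep3 over BioRep1 lay above 0 for ARNT (from 0.184), EGLN2 (from 0.117) and HIF1A (from 0.008). Those of SLC2A1, VEGFA and VHL spanned 0. With single libraries left out, the lower end for EGLN2 in this contrast ranged from -0.196 to 0.099. With the technical number as a replicate block, 1 window was called for BioRep3 over BioRep1 and 1 for BioRep2 over BioRep1; the numbers did not pair the libraries (correlations of same-numbered libraries -0.015 to 0.026, of others -0.021 to 0.023). Leaving out each library gave 0 to 1 calls among the 3 replicates, 0 to 2 for BioRep3 over BioRep1, 0 for BioRep3 over BioRep2 and 0 to 1 for BioRep2 over BioRep1. The cause of these changes was not tested.

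A peak in any list, in place of all 3, raised the genes with a peak within 5 kb to 10, against 57.8% of protein-coding genes. It raised those with a promoter peak to 10, against 42.1%. Without 1 replicate's list the genes with a promoter peak in all remaining lists ranged from 6 to 8, and the value of 8 came without BioRep1. The median level was 65.3 to 71.9 CPM without 1 replicate, and 78.6 CPM with the window of most reads within 1 kb, where SLC2A1 took the SLC2A1-DT window at 72.9 CPM. Tracts of GG in place of GGG gave a match in 8 of 8 promoters, against 89.2% of all promoters. With peaks longer than the median of their list, 4 genes kept a promoter peak in all 3. The shares of protein-coding genes with longer peaks only, or without 1 list, are not given here. The counts on promoter intervals and their alternatives were chosen after seeing the data.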
